A study of Homo sapiens with 44 samples.

Results

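The leukocyte adhesion molecules described here are the products of 7 genes, ICAM1, ICAM2, ICAM3, VCAM1, CD58, ALCAM and F11R. They were found by gene symbol among the 33538 gene identifiers of the deposited tables, and all 7 were among the 14469 genes that passed a filter on low counts. Messenger RNA was sequenced from OVCAR5 cells, an ovarian carcinoma line grown in culture and labeled as carrying a reporter of IFNγ sensing and as CFP positive, unstimulated cells included. The cells received IFNγ at 0.01, 1 or 100 ng/ml, TNFα at 0.1, 1 or 10 ng/ml, IFNγ 100 ng/ml together with TNFα 10 ng/ml, supernatant of a co-culture of tumor cells and T cells at 1/20000, 1/200 or 1/2, or no stimulus. Each of these 11 treatments was applied without interruption for 2, 6, 12 or 24 h, with 1 library for each treatment and duration, 44 libraries in all. The libraries are not stated to come from separate cultures. The p-values below rest on how far each treatment's time course departed from a straight line on log2 duration, beyond the course shared by all treatments. That spread mixes curvature of a response with differences between libraries, which may be technical. The contents of the supernatant are not described.

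Adhesion molecules let leukocytes hold on to other cells. ICAM1, ICAM2 and ICAM3 are ligands of the leukocyte integrin LFA-1, which T cells use to form a stable contact with a target cell, and ICAM1 also binds the myeloid integrin Mac-1. VCAM1 is the ligand of the integrin VLA-4 and is best known from inflamed endothelium. CD58 binds CD2 on T cells and lowers the threshold for their activation, ALCAM binds CD6 on T cells and also binds itself between neighboring cells, and F11R encodes the tight-junction protein JAM-A, which can also bind LFA-1. In many cell types TNFα acts on such genes through the transcription factor NF-κB, which recognizes κB sites, and IFNγ acts through GAS sites and through the transcription factor IRF1.

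The promoter windows of ICAM1 and VCAM1 are shown because these were the members with the largest increases, and capitals mark the motif letters found in them. Each window runs from 250 bases before to 50 bases after the RefSeq start site (GRCh38.p14) and is written 5′ to 3′ on the strand of the gene, which is the plus strand for both. ICAM1 is given for chr19:10270870-10271169 and VCAM1 for chr1:100719492-100719791.
ICAM1: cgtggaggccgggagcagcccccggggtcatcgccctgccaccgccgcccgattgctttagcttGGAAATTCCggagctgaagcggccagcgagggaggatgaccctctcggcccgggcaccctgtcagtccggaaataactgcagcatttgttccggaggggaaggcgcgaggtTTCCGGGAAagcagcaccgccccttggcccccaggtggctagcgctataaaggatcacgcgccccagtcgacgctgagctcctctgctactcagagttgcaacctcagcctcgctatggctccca
VCAM1: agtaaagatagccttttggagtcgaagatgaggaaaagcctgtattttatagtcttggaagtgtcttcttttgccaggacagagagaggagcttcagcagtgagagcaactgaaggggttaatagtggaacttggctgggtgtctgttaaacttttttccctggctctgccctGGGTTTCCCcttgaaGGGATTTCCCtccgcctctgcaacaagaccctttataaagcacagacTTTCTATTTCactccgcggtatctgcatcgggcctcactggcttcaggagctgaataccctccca
The words searched on both strands were GGANNTTCC, GGGNNTTCC, GGANNTCCC and GGGNNTCCC for a κB site, TTCNNNGAA for GAS, and GAAA, any 2 bases and GAAA for an IRF site. The ICAM1 window held 1 κB word, GGAAATTCC, which starts 186 bases before the start site and matched the pattern GGANNTTCC on both strands. The same window held 1 GAS word, TTCCGGGAA, which starts 75 bases before the start site. The VCAM1 window held the κB word GGGTTTCCC, starting 77 bases before the start site, and the overlapping κB words GGGATTTCC and GGATTTCCC, starting 62 and 61 bases before it. It also held an IRF word on the opposite strand, TTTCTATTTC in the printed orientation, starting 15 bases before the start site, and no GAS word. Of 35116 RefSeq windows of 300 bases, 19.8% held a κB word, 7.66% a GAS word and 3.57% an IRF word, while 1.36% held both a κB and a GAS word and 0.55% both a κB and an IRF word. Windows were matched for 5 of the 7 members. Those of CD58 and ALCAM held none of these words, and 2 of the 3 ICAM3 windows, one for each annotated start, held a κB word. A match describes letters and is not evidence of binding.

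Total estimated counts ran from 9586125 to 16270128 per library. The epithelial genes EPCAM, KRT8, KRT18, KRT19 and KRT7 were at 37.3 TPM (transcript abundance per length, scaled to the library) or more in every library, while WT1 and MUC16, which mark many serous ovarian carcinomas, did not exceed 0.618 and 0.295 TPM. The remaining epithelial and ovarian markers were CDH1, PAX8 and MUC1. Their medians over all libraries were 2.89, 7.85 and 2.08 TPM, and their highest levels 12.4, 15.7 and 31.5 TPM. The summed level of all 10 epithelial and ovarian markers was 1771 to 3169.8 TPM under supernatant 1/2, 1903 to 3057 TPM under the combination and 3060 to 3354 TPM in unstimulated cells. Of 10 T-cell markers 9 stayed under 1 TPM in all 44 libraries, CD3E was at 0 in all of them, and their sum was 0.446 to 0.684 TPM under supernatant 1/2 and 0.625 to 1.26 TPM in unstimulated cells. The 5 endothelial markers summed to 0.0393 to 0.629 TPM under supernatant 1/2 and 0.562 to 2.37 TPM in unstimulated cells, and the 5 monocyte and macrophage markers to 56.3 to 139 TPM and 72.4 to 78.0 TPM, nearly all of it CD68, which many cell types express. In bulk RNA a smaller share of cells with a transcript and less of it per cell cannot be told apart.

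Unless stated otherwise, a change is a fitted log2 fold change ± SE at the mean log2 duration. It sets the 4 libraries of a treatment against the 4 unstimulated ones (n = 4 each, 1 per duration and so not replicates of 1 condition). Each change was tested with edgeR's quasi-likelihood test in 1 fit over all 44 libraries. A gene was called at an adjusted p under 0.05 (Benjamini-Hochberg over 14469 genes). Of 41 called member values, 24 lost the call when only the libraries compared were fitted, without slope terms and with few degrees of freedom. Those of ICAM1 and VCAM1 under TNFα 10 ng/ml, the combination and supernatant 1/2 kept it. The called slopes on duration, also among the 41, were not fitted with only the libraries compared. CPM, counts scaled to the size of the library, are used to compare a gene between libraries, and TPM, which allow for transcript length, to compare genes with each other.

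More members were called under TNFα than under IFNγ. Under TNFα, 3 of the 7 members rose at 0.1 ng/ml, 4 at 1 ng/ml and 4 at 10 ng/ml, against a background of 4.02%, 11.5% and 14.3% of all tested genes. Under IFNγ, ICAM1 alone was called higher at 1 and at 100 ng/ml, against 5.54% and 9.38% of all genes, and edgeR called 0 members lower at 100 ng/ml (6.47% of all genes), with 2 lower at an unadjusted p under 0.05 and 0 by DESeq2 or limma-voom. The combination raised 3 members (background 23.5%). It lowered 0 (22.4%), as did TNFα 10 ng/ml (10.1%), by edgeR, at an unadjusted p under 0.05, by DESeq2 and by limma-voom. Supernatant 1/2 raised 3 (22.6%) and lowered ALCAM (20.8%), and at supernatant 1/200 ICAM1 was the 1 member called (7.12%). At the lowest doses, IFNγ 0.01 ng/ml and supernatant 1/20000, edgeR called 0 members in either direction, against 0.0415% and 0.00691% of all genes; 0 members had an unadjusted p under 0.05, and DESeq2 and limma-voom also called 0. The median change over the 7 members was 0.37 under TNFα 10 ng/ml, 0.11 under the combination, -0.04 under supernatant 1/2 and -0.04 under IFNγ 100 ng/ml, beside medians over all tested genes within 0.02 of 0. The unstimulated libraries serve as controls in all of these comparisons, which are therefore not independent of each other.

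**Figure D1:**
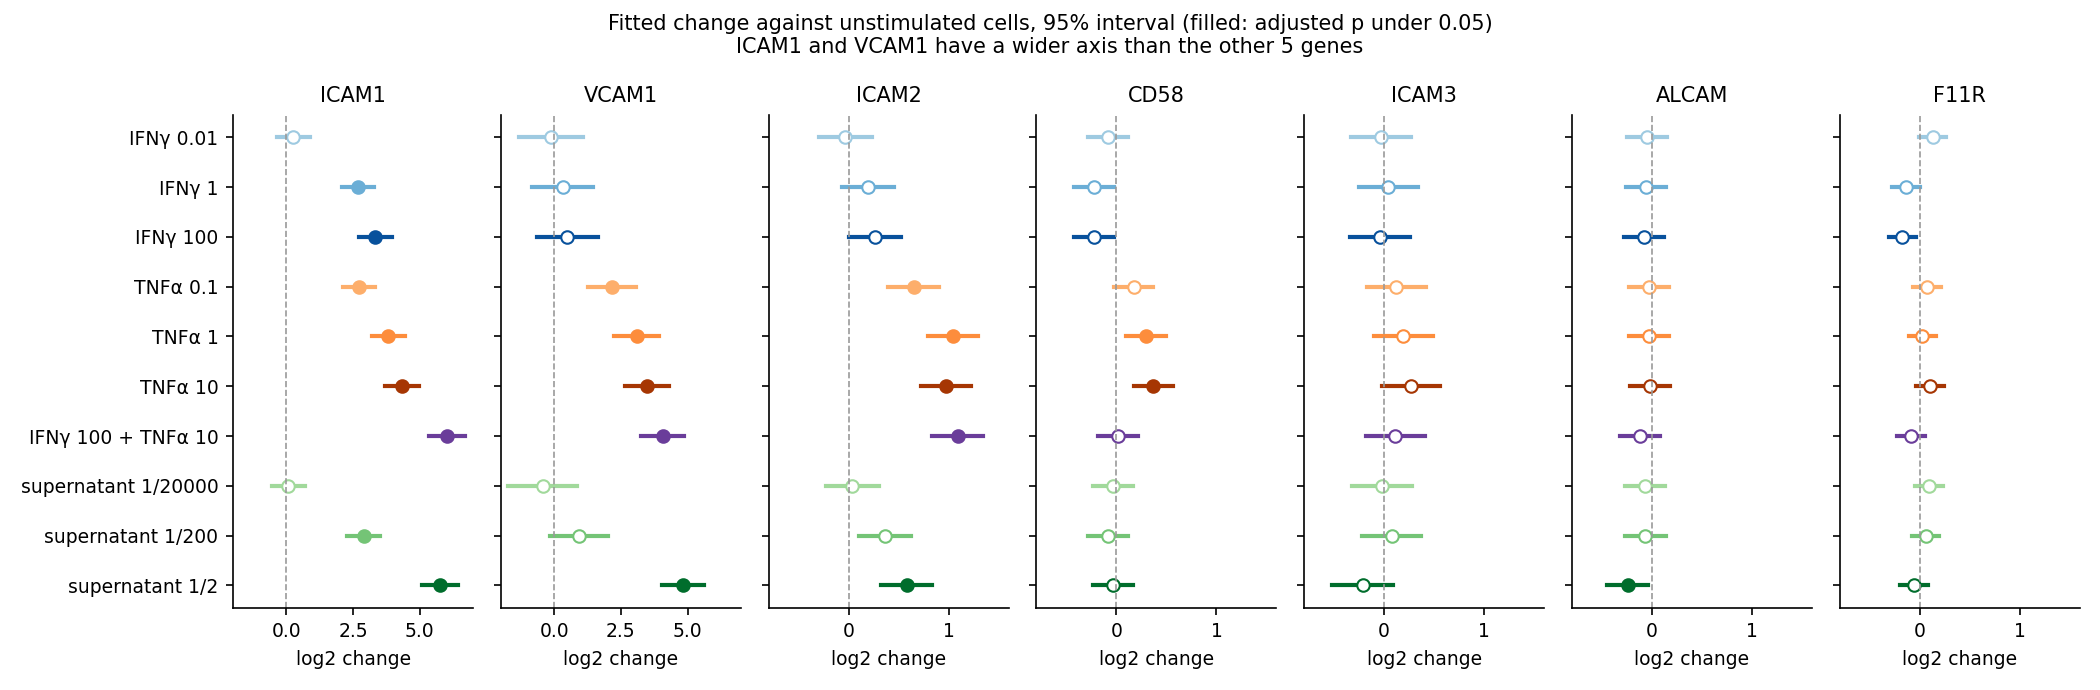
Fitted log2 change of each gene (columns) under each of the 10 treatments (rows, doses in ng/ml) against unstimulated cells, with 95% intervals; filled points had an adjusted p under 0.05, and the ICAM1 and VCAM1 axes are wider. ICAM1 and VCAM1 reached 6.02 and 4.83, while ICAM3 and F11R had no filled point.

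ICAM1 (ENSG00000090339, chromosome 19:10270835-10286615, plus strand, GRCh38 with GENCODE v29) had the highest rise of the family and responded to each cytokine. Unstimulated cells had 37.9, 35.6, 36.7 and 51.3 CPM of ICAM1 at 2, 6, 12 and 24 h. IFNγ 0.01 ng/ml gave 51.1, 50.9, 36.6 and 56.3 CPM, IFNγ 1 ng/ml gave 200.3, 434.7, 308.7 and 164.3 CPM, and IFNγ 100 ng/ml gave 202.4, 560.7, 527.9 and 467.2 CPM. The libraries of the 2 higher doses all lay above every unstimulated one, and those of the lowest dose overlapped them. The fitted change was 0.26 ± 0.29 at 0.01 ng/ml (adjusted p = 1), 2.69 ± 0.29 at 1 ng/ml (adjusted p = 8.24e-07) and 3.33 ± 0.29 at 100 ng/ml (adjusted p = 2.19e-08). Both calls were lost when only the libraries compared were fitted.

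Under TNFα, ICAM1 was already high at 2 h, highest at 6 h at each dose, and lower at 12 and 24 h. TNFα 0.1 ng/ml gave 610.2, 629.0, 182.9 and 68.5 CPM, TNFα 1 ng/ml gave 940.4, 1025, 458.6 and 242.2 CPM, and TNFα 10 ng/ml gave 1107, 1259, 556.8 and 583.3 CPM. At 0.1 ng/ml the level was thus 16.1 and 17.7 times that of unstimulated cells at 2 and 6 h, 4.99 times at 12 h and 1.33 times at 24 h. The fitted change was 2.73 ± 0.29, 3.81 ± 0.30 and 4.34 ± 0.30 in order of dose (adjusted p = 3.37e-06, 7.43e-09 and 7.96e-10), and 57 of 14469 genes had a larger fitted increase than ICAM1 at the highest dose. The slope on duration under TNFα 10 ng/ml was -0.42 ± 0.20 per doubling and was not called (adjusted p = 0.301). With the 12 h and 24 h libraries alone, the change at 0.1 ng/ml was 1.47 and was not called (adjusted p = 0.395).

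ICAM1 also differed between TNFα doses. TNFα 10 ng/ml exceeded 0.1 ng/ml for ICAM1 by 1.61 ± 0.26 (adjusted p = 0.000786) and for VCAM1 by 1.31 ± 0.31 (adjusted p = 0.0192), 2 of 7 members against 3.16% of all genes. Without the TNFα 0.1 ng/ml library at 2 h the ICAM1 difference was 1.26 (adjusted p = 0.125). That of VCAM1 was 1.02 to 1.49 (adjusted p 0.0561 to 0.506) without the TNFα 0.1 ng/ml library at 2, 12 or 24 h or the 10 ng/ml library at 2, 6 or 24 h, and ICAM2 gained a call (0.45, adjusted p = 0.034) without the TNFα 0.1 ng/ml library at 12 h. With the 2 h and 6 h libraries alone the differences were 0.92 for ICAM1 and 0.82 for VCAM1, and without slope terms 1.29 and 1.19 (adjusted p 0.27 or more). VCAM1 also lost the call with limma-voom, with effective length as an offset and with the 12 h and 24 h libraries alone. Between IFNγ 100 and 1 ng/ml ICAM1 differed by 0.64 ± 0.26 (adjusted p = 0.727), and edgeR called 0 members (background 0.173%), with 1 at an unadjusted p under 0.05 and 0 by DESeq2 and by limma-voom. The change per doubling of duration was compared between doses after the values had been seen. edgeR called 0 members for IFNγ 100 minus 1 ng/ml (background 0.0691%) and 0 for TNFα 10 minus 0.1 ng/ml (0.214%), with 2 at an unadjusted p under 0.05 in each and 0 by the other tools. The ICAM1 value for TNFα was 0.58 ± 0.20 (adjusted p = 0.307), which did not pass the test, and that of ICAM2 was called without the TNFα 0.1 ng/ml library at 2 h (0.54, adjusted p = 0.0228).

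**Figure D2:**
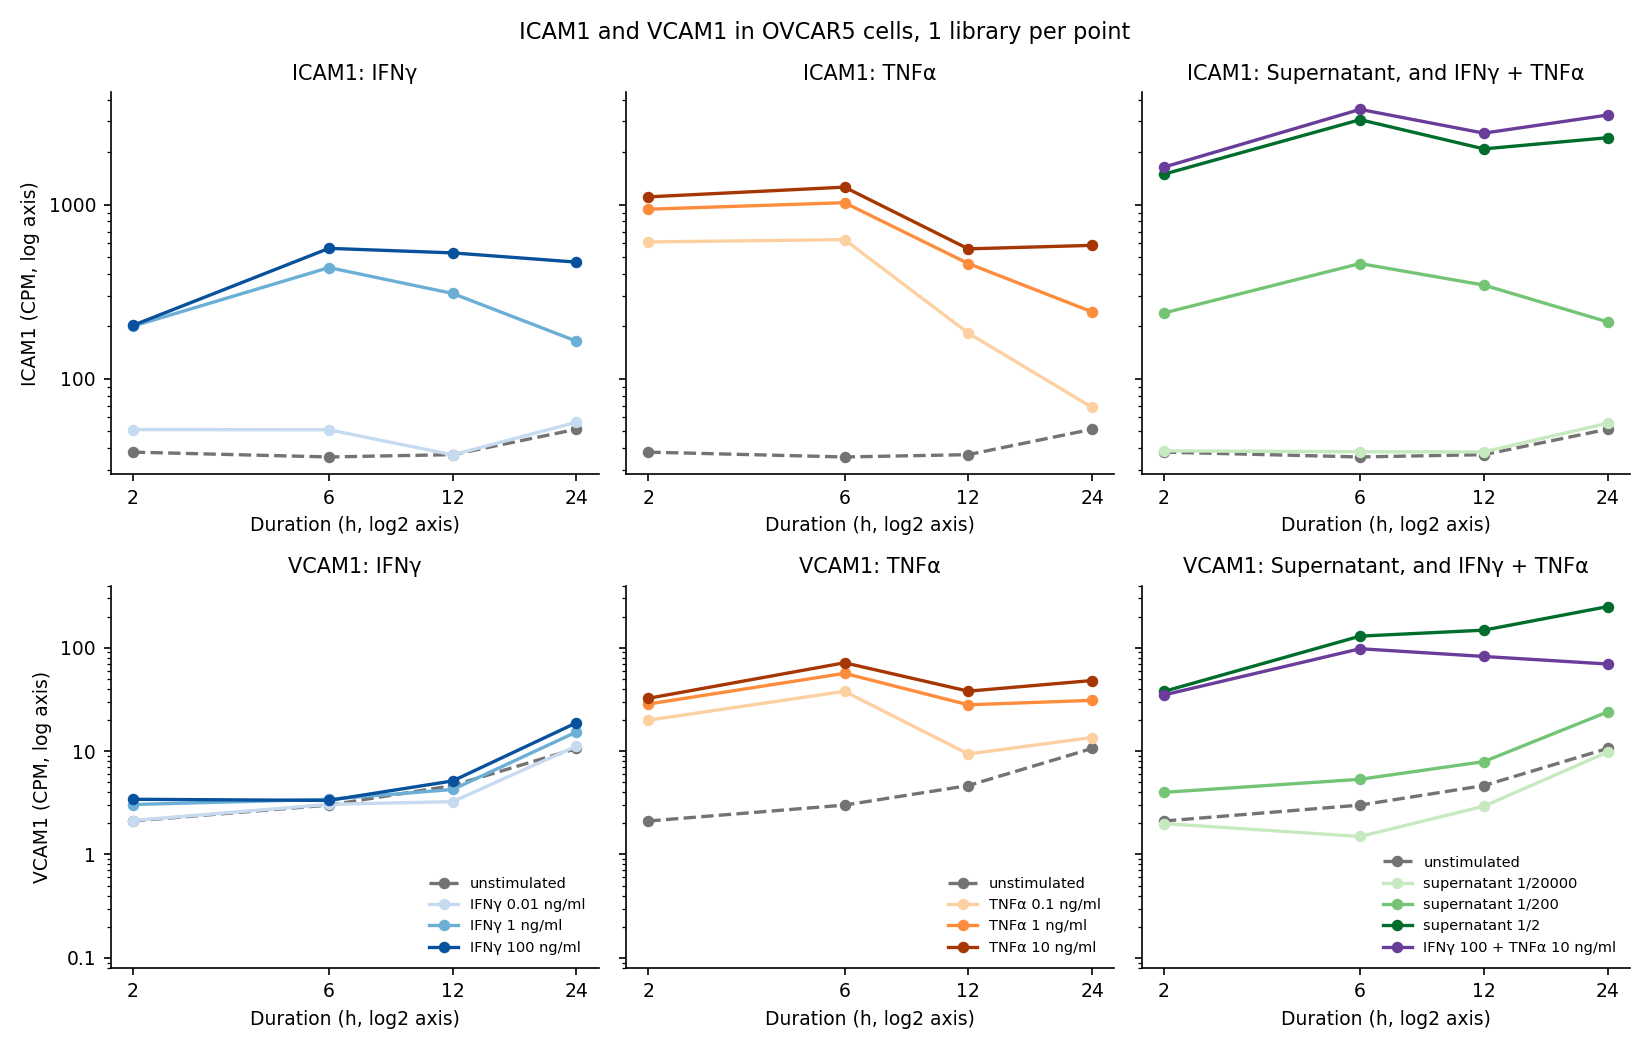
CPM on a log axis against duration on a log2 axis for ICAM1 (top) and VCAM1 (bottom), with 1 library per point. ICAM1 under TNFα 0.1 ng/ml ended at 68.5 CPM beside 51.3 CPM in unstimulated cells, and VCAM1 under supernatant 1/2 climbed to 249.9 CPM at 24 h.

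Together the cytokines gave more ICAM1 than either alone in the fit over all durations. The combination gave 1640.3, 3519, 2570.1 and 3265 CPM at 2, 6, 12 and 24 h, and its lowest library lay above the highest of either single cytokine. The fitted change was 6.02 ± 0.32 against unstimulated cells, 64.7-fold (adjusted p = 2.09e-12), 2.68 ± 0.27 against IFNγ 100 ng/ml (adjusted p = 1.30e-07) and 1.68 ± 0.26 against TNFα 10 ng/ml (adjusted p = 5.01e-05). With the 2 h and 6 h libraries alone the difference from TNFα was 1.03 and was not called (adjusted p = 0.535). The combination was 1.29, 1.97, 2.45 and 3.27 times the unstimulated level plus both single increases, and 0.278, 0.177, 0.321 and 0.615 times the unstimulated level multiplied by both single fold changes. On the log scale the interaction, which measures departure from that product, was -1.66 ± 0.38 for ICAM1 (adjusted p = 0.0502). edgeR called 0 members for it (background 0.525%), with 1 at an unadjusted p under 0.05, 1 by DESeq2 and 0 by limma-voom. The ICAM1 interaction was called without the unstimulated library at 2 h (-2.15, adjusted p = 0.0243) or at 24 h (-1.94, adjusted p = 0.0451).

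**Figure D3:**
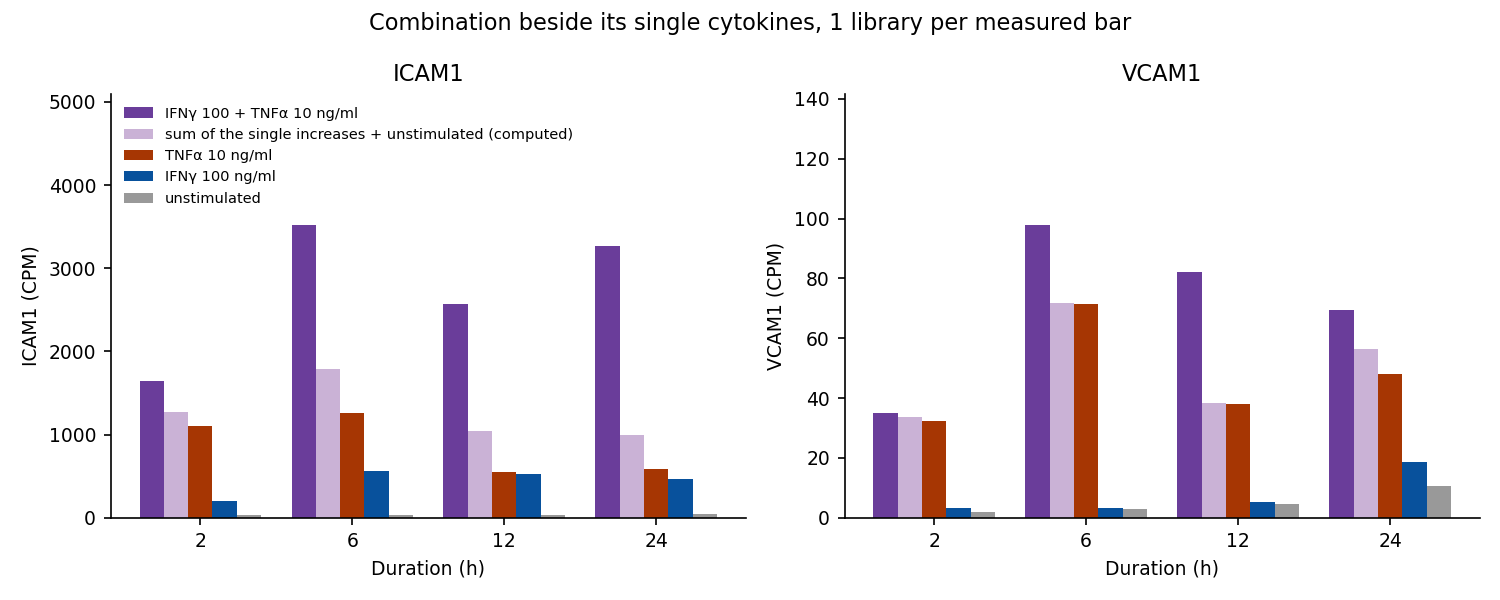
CPM of ICAM1 (left) and VCAM1 (right) at each duration in the combination, the computed sum of the single increases plus the unstimulated level, each single cytokine and unstimulated cells, with 1 library per measured bar. The ICAM1 combination was 1.29 to 3.27 times that sum, and the VCAM1 combination 1.03 to 2.14 times.

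Co-culture supernatant also raised ICAM1 at its 2 higher concentrations. At 1/20000 ICAM1 had 38.6, 38.1, 38.1 and 55.6 CPM, overlapping the unstimulated libraries, at 1/200 it had 238.5, 458.6, 344.9 and 212.1 CPM, and at 1/2 it had 1495, 3071, 2087 and 2419.6 CPM. The fitted changes were 2.89 ± 0.29 at 1/200 (adjusted p = 3.01e-07) and 5.75 ± 0.32 at 1/2 (53.8-fold, adjusted p = 4.47e-12). Against the combination, supernatant 1/2 differed by -0.27 ± 0.25 (95% interval -0.79 to 0.26, adjusted p = 0.586). Estimated counts of ICAM1 were 406.7 to 39180 per library. Antisense transcripts overlap the gene, and ICAM4 lies within 1000 bases; the sources used here do not give the strand setting of the counting. Over all 44 libraries the antisense genes had 319.1 and 901.1 counts, against 358203 for ICAM1.

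VCAM1 (ENSG00000162692, chromosome 1:100719742-100739045, plus strand) followed TNFα but showed no called change under IFNγ. It had 2.11, 3.003, 4.64 and 10.6 CPM in unstimulated cells, 19.9, 37.9, 9.38 and 13.5 CPM under TNFα 0.1 ng/ml, 28.5, 56.5, 28.05 and 30.97 CPM under 1 ng/ml, and 32.4, 71.5, 37.99 and 48.2 CPM under 10 ng/ml. Unstimulated VCAM1 thus climbed in culture, and the lowest TNFα dose overlapped it. The fitted changes were 2.18 ± 0.43, 3.09 ± 0.40 and 3.48 ± 0.40 at 0.1, 1 and 10 ng/ml (adjusted p = 0.00308, 8.62e-06 and 8.18e-07). With the 12 h and 24 h libraries alone the change at 0.1 ng/ml was 0.63 (adjusted p = 0.78). IFNγ 100 ng/ml gave 3.42, 3.33, 5.15 and 18.8 CPM, a change of 0.50 ± 0.54 with a 95% interval of -0.63 to 1.63 (adjusted p = 0.626).

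The combination gave VCAM1 34.9, 97.8, 82.3 and 69.6 CPM, a change of 4.07 ± 0.39 against unstimulated cells (adjusted p = 1.81e-08) and 3.57 ± 0.37 against IFNγ 100 ng/ml (adjusted p = 2.29e-07). Against IFNγ 100 ng/ml the combination was higher for ICAM1, VCAM1 and ICAM2, 3 of 7 members beside 16.1% of all genes. The ICAM2 difference was 0.82 ± 0.12, and 0.43 with the 2 h and 6 h libraries alone (adjusted p = 0.072). Against TNFα 10 ng/ml the VCAM1 difference was 0.58 ± 0.29 (adjusted p = 0.161), and ICAM1 alone was higher there (background 12.5%). Without the combination library at 24 h the VCAM1 difference was 0.89 and was called (adjusted p = 0.0443).

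Supernatant 1/2 gave VCAM1 37.8, 129.5, 147.9 and 249.9 CPM and supernatant 1/200 gave 3.99, 5.33, 7.91 and 23.9 CPM. The ratio of supernatant 1/2 to the combination was 1.08, 1.32, 1.80 and 3.59 with increasing duration. The fitted change was 4.83 ± 0.38 at 1/2 (adjusted p = 1.07e-09) and 0.93 ± 0.52 at 1/200 (adjusted p = 0.295). With only the libraries compared in the fit, the change at 1/200 was 0.94 and was called (adjusted p = 0.0077). The difference between the 1/2 and 1/200 supernatants was 3.90 ± 0.36 for VCAM1 (adjusted p = 2.87e-08) and 2.86 ± 0.27 for ICAM1 (adjusted p = 6.00e-08), 2 of 7 members against 17% of all genes, and without the supernatant 1/2 library at 12 h ICAM2 (0.34, adjusted p = 0.0389) and ALCAM (-0.27, adjusted p = 0.0408) were called too. Against the combination, supernatant 1/2 differed by 0.76 ± 0.28 for VCAM1 (adjusted p = 0.0937). The difference in change per doubling was 0.46 ± 0.23 (adjusted p = 0.352), and edgeR called 0 members for it (background 1.42%), with 2 at an unadjusted p under 0.05 and 0 by the other tools. ICAM2 was called there without the supernatant 1/2 library at 24 h (-0.41, adjusted p = 0.0159), and ALCAM without the one at 2 h (-0.36, adjusted p = 0.0484).

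ICAM2 (ENSG00000108622, chromosome 17:64002594-64020634, minus strand), a ligand of LFA-1 best known from resting endothelium and platelets, rose later and less than ICAM1. It had 24.3, 24.2, 18.5 and 17.3 CPM in unstimulated cells, 27.2, 35.7, 42.2 and 26.6 CPM under TNFα 0.1 ng/ml, 32.99, 40.9, 48.0 and 52.9 CPM under 1 ng/ml, and 28.2, 33.9, 51.0 and 58.6 CPM under 10 ng/ml. All 12 TNFα libraries lay above the highest unstimulated one. The combination gave 30.5, 35.9, 49.9 and 71.1 CPM, supernatant 1/2 gave 29.1, 28.9, 28.4 and 39.9 CPM, and IFNγ 100 ng/ml gave 25.4, 23.5, 25.8 and 26.1 CPM. The fitted changes were 0.65 ± 0.12, 1.04 ± 0.12 and 0.98 ± 0.12 at 0.1, 1 and 10 ng/ml TNFα, 1.09 ± 0.12 for the combination, 0.58 ± 0.12 for supernatant 1/2 and 0.27 ± 0.12 for IFNγ 100 ng/ml (adjusted p = 0.00103, 3.06e-07, 5.96e-07, 2.74e-08, 0.000346 and 0.159). With the 2 h and 6 h libraries alone the changes under TNFα 10 ng/ml and supernatant 1/2 were 0.35 and 0.25 and were not called (adjusted p = 0.141 and 0.244). The change at TNFα 0.1 ng/ml lost its call with these libraries alone (0.37, adjusted p = 0.251), with those at 12 h and 24 h alone (0.94, adjusted p = 0.299) and without slope terms (0.62, adjusted p = 0.141). At supernatant 1/200 the change was 0.36 ± 0.12 (adjusted p = 0.0568), and it was called without the unstimulated library at 6 h (0.44, adjusted p = 0.04).

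The change in ICAM2 grew with duration, by 0.46 ± 0.09 per doubling under TNFα 10 ng/ml (adjusted p = 0.00556) and by 0.50 ± 0.09 under the combination (adjusted p = 0.000272), relative to unstimulated cells of the same duration. ICAM2 alone had a rising slope in either, against 1.47% and 11.1% of all genes. The TNFα slope was 0.44 to 0.56 and not called (adjusted p 0.061 to 0.2) without the unstimulated library at 2 h or the TNFα 10 ng/ml library at 2 or 24 h. Under supernatant 1/2 the slope was 0.26 ± 0.09 (adjusted p = 0.0577), called without its library at 2 h (0.41, adjusted p = 0.044) or 12 h (0.30, adjusted p = 0.0193). Under IFNγ 100 ng/ml edgeR called a slope for 0 members (background 3.43%), with 1 at an unadjusted p under 0.05 and 0 by DESeq2 and by limma-voom. ICAM2 was lower under supernatant 1/2 than under the combination by 0.51 ± 0.12 on the log2 scale (adjusted p = 0.0067), the one member so called (background 3.95%). Without the combination library at 2 h that difference was -0.35 (adjusted p = 0.176) and without the one at 24 h -0.39 (adjusted p = 0.0767). It also lost the call with effective length as an offset, without slope terms and in either pair of durations alone (-0.85 to -0.19, adjusted p 0.0672 to 0.642). ICAM2 in the combination was 0.855 to 1.08 times the unstimulated level plus both single increases. PRR29 overlaps ICAM2 on the opposite strand, with 2198 counts over all libraries against 15469 for ICAM2.

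CD58 (chromosome 1:116514535-116571039, minus strand) rose slightly under TNFα. It had 21.6, 20.3, 19.7 and 21.9 CPM under TNFα 10 ng/ml, against 19.6, 15.7, 14.5 and 15.1 CPM in unstimulated cells, so each TNFα library lay above the highest unstimulated one. The change was 0.37 ± 0.09 at 10 ng/ml (adjusted p = 0.00403) and 0.30 ± 0.09 at 1 ng/ml (adjusted p = 0.0258). Without the unstimulated library at 2 h the change at 10 ng/ml was 0.34 (adjusted p = 0.0598). At 1 ng/ml it was 0.26 to 0.35 (adjusted p 0.0571 to 0.175) without the unstimulated library at 2, 12 or 24 h or the TNFα 1 ng/ml library at 2, 6 or 24 h, and DESeq2 did not call it. With the 2 h and 6 h libraries alone the changes were 0.25 at 10 ng/ml (adjusted p = 0.297) and 0.19 at 1 ng/ml (adjusted p = 0.489). Under IFNγ 100 ng/ml CD58 had 18.5, 12.2, 12.5 and 12.9 CPM, below the unstimulated library at each duration, with a change of -0.22 ± 0.10 (adjusted p = 0.128).

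The combination left CD58 at 19.8, 14.7, 13.004 and 18.5 CPM, a change of 0.02 against unstimulated cells (95% interval -0.18 to 0.22, adjusted p = 0.89). Relative to TNFα 10 ng/ml alone it was lower by -0.35 ± 0.09 (adjusted p = 0.00715), and F11R by -0.19 ± 0.07 (adjusted p = 0.042), 2 of 7 members against 11.2% of all genes. Without the combination library at 12 h the CD58 difference was -0.27 (adjusted p = 0.0592), and relative to IFNγ 100 ng/ml CD58 was then called higher (0.33, adjusted p = 0.0174). The CD58 difference from TNFα also lost its call with effective length as an offset and in either pair of durations alone (-0.41 to -0.29, adjusted p 0.059 to 0.567). Supernatant 1/2 gave 20.5, 16.4, 12.4 and 14.8 CPM.

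Set against each other, IFNγ 100 ng/ml gave lower levels than TNFα 10 ng/ml for 5 of 7 members (background 13.4%). The differences were -2.98 ± 0.38 for VCAM1, -1.01 ± 0.26 for ICAM1, -0.71 ± 0.12 for ICAM2, -0.59 ± 0.10 for CD58 and -0.27 ± 0.07 for F11R. That of ICAM1 was -0.92 to -0.87 (adjusted p 0.0523 to 0.0953) without the IFNγ library at 2 or 24 h or the TNFα library at 2 h, and -0.21 with the 12 h and 24 h libraries alone (adjusted p = 0.823). That of F11R was -0.17 or -0.16 (adjusted p = 0.164 and 0.124) without the TNFα library at 2 or 24 h, and it was not called with effective length as an offset (-0.18, adjusted p = 0.629) or with the 2 h and 6 h libraries alone (-0.15, adjusted p = 0.472). The ICAM2 difference was -0.35 with the 2 h and 6 h libraries alone (adjusted p = 0.151), and ICAM3 was called lower with those at 12 h and 24 h alone (-0.61, adjusted p = 0.0432).

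ALCAM (chromosome 3:105366909-105576900, plus strand), the most abundant member of the family in unstimulated cells, fell late under supernatant 1/2. It had 436.7, 432.7, 340.0 and 168.3 CPM there, against 420.7, 385.0, 373.7 and 364.5 CPM in unstimulated cells. At 24 h the combination had 227.2 CPM, TNFα 10 ng/ml 284.3 CPM and IFNγ 100 ng/ml 314.9 CPM. The slope under supernatant 1/2 was -0.29 ± 0.07 per doubling (adjusted p = 0.00871) and the change at the mean duration -0.24 ± 0.10 (adjusted p = 0.0452). Both calls depended on single libraries: the slope was -0.20 to -0.12 (adjusted p 0.155 to 0.283) without the supernatant 1/2 or the unstimulated library at 24 h, and the change was -0.16 to -0.04 (adjusted p 0.274 to 0.784) without either of these or without the 2 h library of either group. With the 2 h and 6 h libraries alone the change was 0.10 (adjusted p = 0.275), and the call was also lost with no filter, with effective length as an offset and without slope terms (-0.27 to -0.22, adjusted p 0.0597 to 0.165). Under the combination the slope was -0.18 ± 0.07 (adjusted p = 0.0891) and was called without its 2 h library (-0.35, adjusted p = 0.0258). The epithelial marker EPCAM was also lower under supernatant 1/2, at 37.3 to 75.6 TPM against 80.5 to 83.4 TPM in unstimulated cells, and its part in the ALCAM result was not tested.

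ICAM3 (ENSG00000076662, chromosome 19:10333776-10339823, minus strand), which is mainly a leukocyte gene, was the other member with a falling slope under supernatant 1/2, 2 of 7 against 7.91% of all genes. It had 7.52, 6.82, 5.60 and 3.43 CPM there, against 4.92, 7.35, 7.33 and 6.71 CPM in unstimulated cells. The slope was -0.41 ± 0.11 (adjusted p = 0.012), and -0.25 (adjusted p = 0.452) without the unstimulated library at 2 h or -0.36 (adjusted p = 0.0854) without the supernatant 1/2 library at 24 h, and -0.32 (adjusted p = 0.144) with effective length as an offset. Its level at the mean duration was not called under any treatment, with 31.4 to 125.7 estimated counts per library. With the 12 h and 24 h libraries alone it was called lower under supernatant 1/2 than in unstimulated cells (-0.65, adjusted p = 0.0228, against -0.21 over all durations) and than under supernatant 1/200 (-0.63, adjusted p = 0.0353). The antisense gene AC114271.1 overlaps ICAM3, with 1319 counts over all libraries against 3507 for ICAM3. RAVER1 lies within 1000 bases on the same strand and had 27325 counts. Sharing of reads among these genes was not tested.

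**Figure D4:**
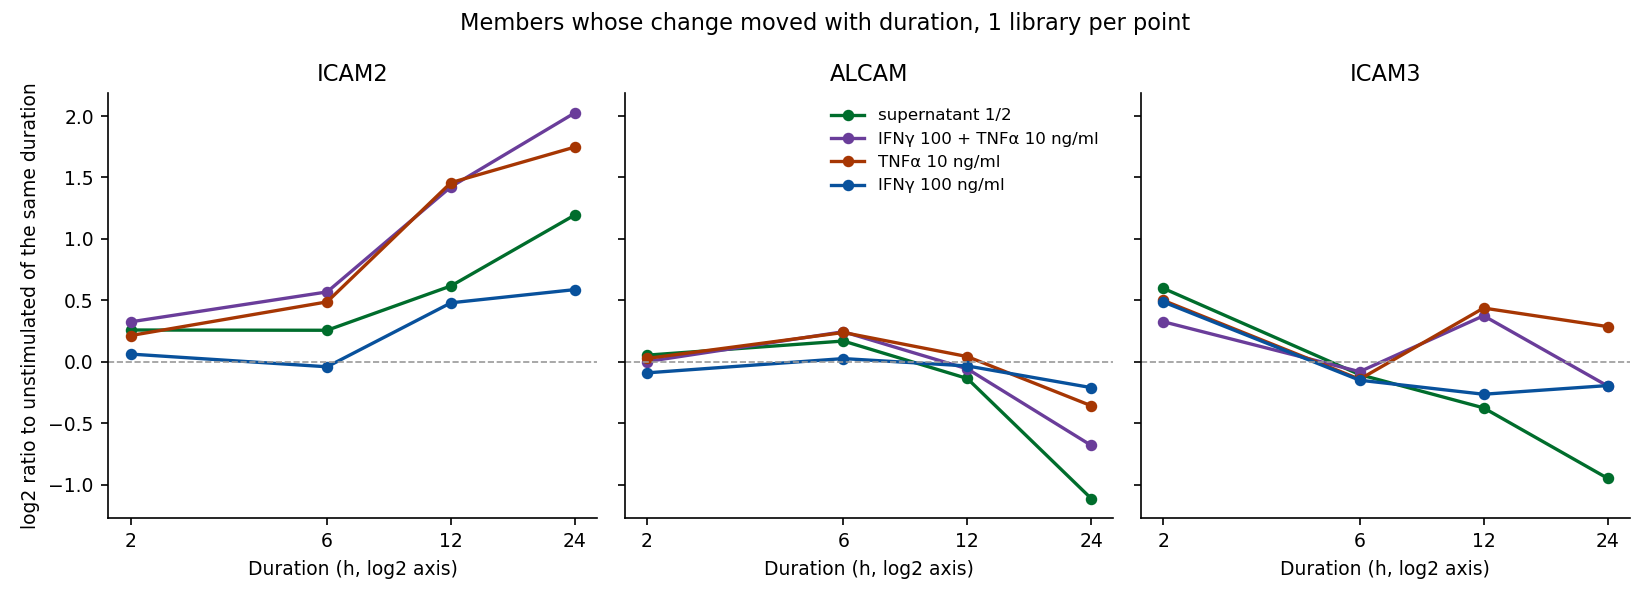
Log2 ratio of CPM (prior count 2) to the unstimulated library of the same duration for ICAM2, ALCAM and ICAM3 under supernatant 1/2, the combination, TNFα 10 ng/ml and IFNγ 100 ng/ml, with 1 library per point and a dashed line at no change. ICAM2 climbed to 24 h under the combination and TNFα, and ALCAM and ICAM3 were lowest at 24 h under supernatant 1/2.

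F11R (chromosome 1:160995211-161021348, minus strand) moved least, with a highest CPM 1.58 times its lowest over the 44 libraries. It had 83.4, 78.5, 62.2 and 57.4 CPM under the combination, 88.2, 76.5, 67.3 and 85.7 CPM under TNFα 10 ng/ml and 82.3, 66.3, 58.8 and 57.7 CPM under IFNγ 100 ng/ml, against 79.2, 71.3, 69.8 and 75.6 CPM in unstimulated cells. No treatment was called against unstimulated cells over all durations, and the combination was called lower with the 12 h and 24 h libraries alone (-0.28, adjusted p = 0.0421, against -0.08). The lower level in the combination than in TNFα was -0.18 to -0.07 (adjusted p 0.0949 to 0.624) without the TNFα library at 2 or 24 h or the combination library at 2, 12 or 24 h, and DESeq2 did not call it. AL591806.3 overlaps F11R on the same strand, with 7903 counts over all libraries against 38171 for F11R.

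Per transcript length, the order of the family changed with treatment. Under the combination ICAM1 led with 629.7 to 1251 TPM, followed by ALCAM at 66.3 to 125 TPM and ICAM2 at 49.4 to 109 TPM, whose ranges overlapped. VCAM1 (13.8 to 36.9 TPM), F11R (18.4 to 28.1 TPM), CD58 (15.5 to 24.2 TPM) and ICAM3 (10.3 to 16.1 TPM) lay below them and overlapped in part. Under supernatant 1/2 ICAM1 had 571.1 to 1129 TPM and VCAM1 16.2 to 102 TPM. In unstimulated cells ALCAM led with 109 to 121 TPM, ICAM2 (28.2 to 40.5 TPM) overlapped F11R (26.6 to 38.6 TPM), CD58 had 19.6 to 26.2 TPM, ICAM1 12.8 to 24.6 TPM, ICAM3 10.9 to 14.2 TPM and VCAM1 0.770 to 4.64 TPM. The F11R values carry extra spread, because its deposited effective length varied 2.07-fold between libraries.

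Other genes of the same pathways were called as well, from lists chosen with earlier results of these data known. Their counts are a description and not a test of the pathways. Of 15 NF-κB subunits and feedback genes, 15 rose under the combination, 15 under supernatant 1/2, 13 under TNFα 10 ng/ml (1 fell) and 5 under IFNγ 100 ng/ml, with median changes of 2.31, 2.25, 1.84 and 0.28. The shares of all tested genes called higher were 23.5%, 22.6%, 14.3% and 9.38% in that order, and medians over all genes were within 0.02 of 0. TNFAIP3, a feedback inhibitor of NF-κB, changed by 5.25 ± 0.35 under the combination and 4.59 ± 0.35 under TNFα. NFKBIA, which encodes the inhibitor IκBα, changed by 4.20 ± 0.18 and 3.78 ± 0.18, while TNFRSF1A, the main TNFα receptor, fell by 0.18 under TNFα. Of 15 IFNγ signaling genes, 15 rose under the combination, 15 under supernatant 1/2, 12 under IFNγ 100 ng/ml and 9 under TNFα 10 ng/ml, against the same shares of all genes. IRF1, a transcription factor that IFNγ induces, changed by 5.06 ± 0.35, 5.00 ± 0.35, 4.49 ± 0.34 and 1.54 ± 0.32 in the same order.

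A list of 25 other adhesion genes was mostly of the immunoglobulin and selectin types, but also held CD44, CD99, CD34, EPCAM and GLG1. Of the 18 tested, 10 rose and 7 fell under the combination, and 9 rose and 5 fell under supernatant 1/2. Under TNFα 10 ng/ml 5 rose and 4 fell, and under IFNγ 100 ng/ml 4 rose and 3 fell. Of all tested genes, 23.5% rose and 22.4% fell under the combination, 22.6% and 20.8% under supernatant 1/2, 14.3% and 10.1% under TNFα, and 9.38% and 6.47% under IFNγ. CD47, which signals to phagocytes through SIRPα, changed by 2.06 ± 0.11 under the combination, 2.10 ± 0.11 under supernatant 1/2, 0.86 ± 0.11 under TNFα and 1.05 ± 0.11 under IFNγ. CEACAM1 changed by 1.33 ± 0.24 under IFNγ, and CD44, the hyaluronan receptor, by 0.71 ± 0.08 under TNFα. NECTIN3 fell by 0.59 under the combination, and PECAM1, which reached at most 3.11 TPM in any library, by 2.02. ICAM4, the neighbor of ICAM1, had 0, 14.1, 19.3 and 14.2 counts under the combination at 2, 6, 12 and 24 h, against 0 in every unstimulated library. SELE, the endothelial selectin, did not pass the filter and reached at most 0.488 TPM.

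Of 15 tested sheddases, membrane anchors and partners of these molecules, 7 rose and 6 fell under the combination, 7 rose and 5 fell under supernatant 1/2, 8 rose and 4 fell under TNFα 10 ng/ml, and 3 fell under IFNγ 100 ng/ml with none called higher, against those shares of all genes. MMP9, a secreted protease, changed by 3.37 ± 0.57 under supernatant 1/2, ADAM8 by 1.73 ± 0.12 and the anchor moesin (MSN) by 0.60 ± 0.04, while the anchor ezrin (EZR) fell by 0.42. MMP9 was near the floor, at 0 to 0.113 TPM in unstimulated cells and 0.0421 to 6.20 TPM under supernatant 1/2. Of 13 listed leukocyte receptor genes, which held ITGAE beside receptors of the family, 7 were tested in these tumor cells. Of these, 1 rose and 2 fell under the combination, and 2 rose under supernatant 1/2. Under TNFα 10 ng/ml 1 rose, and under IFNγ 100 ng/ml 1 rose and 1 fell, against the same shares. ITGAM, a subunit of Mac-1, changed by 3.67 ± 0.37 under supernatant 1/2, 3.17 ± 0.38 under the combination and 3.25 ± 0.39 under TNFα, to at most 4.06 TPM. ITGAX changed by 0.87 ± 0.20 under supernatant 1/2 and ITGB7 by 1.75 ± 0.41 under IFNγ. The median of ITGB7 over all libraries was 0.425 TPM, and its highest level 3.61 TPM. ITGB1, which pairs with the α4 chain in VLA-4, fell by 0.15 under IFNγ and by 0.10 under the combination. ITGAE, which was on the list but is not a receptor of the 7 members, fell by 0.38 under the combination.

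The genes whose log2 CPM followed each member most closely over the 44 libraries were ranked by Pearson's r, as a description. These points share treatments, durations and library depth. For ICAM1 they were ICAM4-AS1 (0.9765), which overlaps it on the other strand, CSF1 (0.9764) and LINC02605 (0.9717). For VCAM1 they were GFPT2, DTX4 and TANK (0.950, 0.949 and 0.947), and for ICAM2 they included ROBO4 and MAP4K4 (0.909 and 0.902). For CD58 they were SVIL, RAB22A and KLF5 (0.843, 0.837 and 0.833), and for ALCAM SFPQ, PRR11 and ANLN (0.929, 0.924 and 0.918). F11R was closest to MAP3K20, PPP1R14C and GALNT1 (0.805, 0.788 and 0.782). ICAM3, the least counted member, reached r = 0.656 with IL6R, 0.644 with SNX8 and 0.643 with UBAP2L. Between members the highest values were 0.810 for ICAM1 with VCAM1, 0.639 for ICAM1 with ICAM2 and 0.632 for ICAM2 with VCAM1. ICAM4-AS1 is the antisense gene with 901.1 counts over all libraries, against 358203 for ICAM1. Sharing of reads between ICAM4-AS1 and ICAM1 was not tested.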

How the data were processed

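Polyadenylated RNA from 44 OVCAR5 libraries (TruSeq stranded, HiSeq 2500, per the labels' protocols) was quantified by the authors. The deposited tables give estimated counts and TPM per Ensembl gene, with effective lengths. The submitters' processing notes name GRCh38, FastQC, UMI-tools, Trim Galore, STAR, Salmon, Picard, Cell Ranger, SAMtools, bedtools, StringTie and DESeq2. Their versions, roles and strand setting are not given in these sources. Of 33538 identifiers, 33113 were named from a table of gene names and 343 from GENCODE v29.

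Deposited estimated counts were rounded and filtered with edgeR's filterByExpr (minimum count 10, minimum total 15), leaving 14469 genes. They were scaled by TMM (factors 0.896 to 1.081) and fitted with edgeR 4.0.16 in R 4.3.3. The fit held duration as a factor, treatment, and a slope of each treatment on log2 duration (24 coefficients, 20 residual degrees of freedom), with libraries of different durations standing in for replicates. The median biological coefficient of variation was 7.28%. Each SE from edgeR was computed as the absolute log2 change divided by the square root of the quasi-likelihood F statistic. The 95% intervals used that SE with 20 degrees of freedom, so they can differ slightly from the test. 25 comparisons were tested, 3 of them added after values had been seen. Alternatives used DESeq2 1.42.0, limma-voom (limma 3.58.1), other filters, offsets and subsets, and each library left out. The scripts were tested on simulated data. The members and gene lists were chosen with earlier results of these data known. From each list, genes called with the largest changes (at most 3 a direction) and any gene behind a count of 5 or fewer could be named, with the 3 genes most alike per member. One gene that this rule names is not reported here.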

Additional observations from a re-analysis of the deposited data

Results flagged for a closer look

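Of the 7 genes, 3 had a change that differed between durations in a test of the slope itself (edgeR's quasi-likelihood test, adjusted over 14469 genes). ICAM2 increased relative to unstimulated cells by 0.46 ± 0.09 per doubling of duration under TNFα 10 ng/ml (adjusted p = 0.00556) and by 0.50 ± 0.09 under the combination of IFNγ 100 ng/ml and TNFα 10 ng/ml (adjusted p = 0.000272). ICAM3 under supernatant 1/2 had a slope of -0.41 ± 0.11 (adjusted p = 0.012) and ALCAM one of -0.29 ± 0.07 (adjusted p = 0.00871). The ICAM2 slope under the combination kept its call without any single library, while the other 3 lost it without 1 of 2 or 3 libraries at 2 or 24 h.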

How the results depend on the processing

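No paired analysis was possible because each treatment and duration has 1 library and so no replicate number to pair by; duration, which the treatments share, is a factor of the fit itself. Of 41 called values of the members, 13 were called in every setting tried, and 20 in every setting other than fitting only the libraries compared. Both counts include the ICAM2 slope under the combination. Slopes were not fitted with only the libraries compared, without slope terms or in a pair of durations, so they faced fewer settings. Calls lost numbered 1 with DESeq2 size factors, 2 with DESeq2, 1 with limma-voom, 3 with no filter, 8 with effective length as an offset, 7 without slope terms, 8 with the 12 h and 24 h libraries alone and 15 with the 2 h and 6 h libraries alone. In the last of these the ALCAM change under supernatant 1/2 turned to 0.10. The cause was not tested.

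Counts of members called moved by over 1.5 times as follows. The interaction had 1 with DESeq2 size factors and 1 with DESeq2, and TNFα 10 against 0.1 ng/ml had 1 with limma-voom. With effective length as an offset, the combination against TNFα had 1, TNFα 10 against 0.1 ng/ml 1, supernatant 1/2 against the combination 0 and the supernatant 1/2 slope 1. Without slope terms, TNFα 10 against 0.1 ng/ml and supernatant 1/2 against the combination had 0 each. With the 2 h and 6 h libraries, TNFα 10 ng/ml had 2, supernatant 1/2 had 2, IFNγ against TNFα 3, and the combination against TNFα, TNFα 10 against 0.1 ng/ml and supernatant 1/2 against the combination 0 each. With the 12 h and 24 h libraries, TNFα 0.1 ng/ml had 0, TNFα 10 against 0.1 ng/ml 1 and supernatant 1/2 against the combination 0. With only the libraries compared, IFNγ 1 ng/ml, IFNγ 100 ng/ml and TNFα 0.1 ng/ml had 0 each, TNFα 1 ng/ml had 1, TNFα 10 ng/ml 2, supernatant 1/2 2, IFNγ against TNFα 1, and the combination against TNFα, TNFα 10 against 0.1 ng/ml and supernatant 1/2 against the combination 0 each.

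With each library left out in turn, the count was 1 to 2 for supernatant 1/200, 0 to 1 for the interaction, 0 to 1, 1 to 2 and 0 to 3 for the slopes of TNFα, the combination and supernatant 1/2, 3 to 5 for IFNγ against TNFα, 0 to 2 for TNFα 10 against 0.1 ng/ml, 1 to 3 for the combination against TNFα, 0 to 1 for supernatant 1/2 against the combination, 2 to 4 for supernatant 1/2 against 1/200, and 0 to 1 for the slope differences of TNFα doses and of supernatant 1/2 and the combination. Over all such fits of called values, 290 kept the call and 38 lost it. Depth limited ICAM3 and VCAM1 most, with as few as 31.4 and 17 estimated counts in a library, and 28 for VCAM1 in unstimulated cells.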
